A study of Mus musculus with 12 samples.

Results

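The regions described here are the starts of long non-coding RNA (lncRNA) genes that stand apart from protein-coding genes. A start was taken as lone when it lay more than 3000 bp from every protein-coding start, and its region was the start plus and minus 3000 bp. Of 42667 autosomal gene starts of known strand in the RefSeq gene table of GRCm38.p6 (mm10), 9171 were lone lncRNA starts, which is 82.7% of the 11091 lncRNA starts with a strand. The other classes were 20256 protein-coding starts and 1920 lncRNA starts within 3000 bp of a protein-coding start. Each region was scored by whether an H3K36ac peak overlapped it by at least 1 bp.

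The peaks came from chromatin immunoprecipitation sequencing of acetylated lysine 36 of histone H3 (H3K36ac) in spermatogonia, the mitotic germ cells of the testis, at postnatal day 5 (Pnd 5). There were 3 wild-type (WT) and 3 Sirt7-/- samples (S7KO in the labels), numbered as replicates 2, 3 and 4 in each genotype, each from a different mouse and each from 50000 cells. Both genotypes were on a 129S1/Sv background, and the Sirt7-/- allele is not described further in the sources used here. Spermatogonia were enriched by differential plating, so other testis cells may remain. Peak calling by the authors was done sample by sample, with the input of the same sample as control.

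LncRNAs are transcripts without a long open reading frame. Some start at promoters that they share with a protein-coding gene, and others have a promoter of their own, such as many host genes of microRNAs and small nucleolar RNAs. Acetylation of histone H3 tails is a mark of active promoters in open chromatin, and H3K36ac lies mainly at and just after the starts of transcribed genes with CpG-rich promoters. SIRT7 is a nuclear deacetylase of the sirtuin family that removes acetyl groups from histone H3.

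The promoter sequences of 8 of the members called most often show the range of base composition among them. Each runs from 250 bases before to 50 bases after the start, 5′ to 3′ on the strand of the lncRNA, as given by RefSeq on GRCm38.p6, with CG dinucleotides in capitals. The 7 sequences shown first belong to members whose start lay inside a peak in at least 1 list. Gm16796, shown last, was called in 5 lists with its peak beside the start.
B330016D10Rik (chr4:141545912-141546211, plus strand): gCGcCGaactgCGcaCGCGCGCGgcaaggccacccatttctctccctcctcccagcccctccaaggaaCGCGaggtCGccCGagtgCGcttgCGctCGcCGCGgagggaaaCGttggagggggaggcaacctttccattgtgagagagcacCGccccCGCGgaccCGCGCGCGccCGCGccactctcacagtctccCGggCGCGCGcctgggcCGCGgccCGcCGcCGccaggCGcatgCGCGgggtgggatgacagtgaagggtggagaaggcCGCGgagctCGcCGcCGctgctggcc
1700055D16Rik (chr6:134792110-134792409, plus strand): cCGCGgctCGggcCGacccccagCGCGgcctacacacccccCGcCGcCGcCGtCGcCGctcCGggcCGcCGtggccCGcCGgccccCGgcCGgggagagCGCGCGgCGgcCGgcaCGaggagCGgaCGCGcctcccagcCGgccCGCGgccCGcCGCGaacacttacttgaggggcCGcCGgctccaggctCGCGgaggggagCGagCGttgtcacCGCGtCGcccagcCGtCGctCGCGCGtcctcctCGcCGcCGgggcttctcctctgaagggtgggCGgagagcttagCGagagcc
Chaserr (chr7:73558346-73558645, minus strand): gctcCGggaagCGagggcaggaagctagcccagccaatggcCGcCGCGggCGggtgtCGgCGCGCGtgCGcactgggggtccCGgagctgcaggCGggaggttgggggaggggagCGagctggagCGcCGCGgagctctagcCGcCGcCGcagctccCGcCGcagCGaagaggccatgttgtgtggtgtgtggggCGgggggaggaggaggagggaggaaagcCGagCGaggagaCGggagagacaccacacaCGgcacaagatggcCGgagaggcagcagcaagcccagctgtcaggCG
A630072M18Rik (chr5:20950739-20951038, plus strand): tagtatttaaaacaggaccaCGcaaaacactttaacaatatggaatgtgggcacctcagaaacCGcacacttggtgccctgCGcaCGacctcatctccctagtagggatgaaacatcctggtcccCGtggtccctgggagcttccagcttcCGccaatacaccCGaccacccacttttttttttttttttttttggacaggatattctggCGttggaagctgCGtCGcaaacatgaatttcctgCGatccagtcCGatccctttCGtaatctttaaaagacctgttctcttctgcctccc
4930456A14Rik (chr7:126502184-126502483, plus strand): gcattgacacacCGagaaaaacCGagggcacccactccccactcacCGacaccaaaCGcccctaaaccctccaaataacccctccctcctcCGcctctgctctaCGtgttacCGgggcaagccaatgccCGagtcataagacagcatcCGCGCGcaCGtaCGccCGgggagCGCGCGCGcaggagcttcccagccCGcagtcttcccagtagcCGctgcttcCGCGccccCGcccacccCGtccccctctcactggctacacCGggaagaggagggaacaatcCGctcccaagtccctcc
Gm10910 (chr9:31280679-31280978, plus strand): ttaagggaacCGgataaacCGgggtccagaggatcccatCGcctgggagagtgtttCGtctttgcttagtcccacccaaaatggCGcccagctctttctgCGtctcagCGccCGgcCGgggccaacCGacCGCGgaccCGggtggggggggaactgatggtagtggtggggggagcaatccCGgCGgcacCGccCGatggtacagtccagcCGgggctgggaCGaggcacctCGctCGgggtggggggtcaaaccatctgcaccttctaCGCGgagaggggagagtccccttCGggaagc
Gm46864 (chr4:103214693-103214992, plus strand): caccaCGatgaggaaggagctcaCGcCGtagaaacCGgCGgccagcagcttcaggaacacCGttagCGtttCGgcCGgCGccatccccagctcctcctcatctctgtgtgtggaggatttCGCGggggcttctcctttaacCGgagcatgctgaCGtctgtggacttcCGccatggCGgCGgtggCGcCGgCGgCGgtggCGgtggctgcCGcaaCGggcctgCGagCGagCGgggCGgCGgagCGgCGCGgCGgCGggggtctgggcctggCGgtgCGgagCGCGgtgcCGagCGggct
Gm16796 (chr2:170511878-170512177, minus strand): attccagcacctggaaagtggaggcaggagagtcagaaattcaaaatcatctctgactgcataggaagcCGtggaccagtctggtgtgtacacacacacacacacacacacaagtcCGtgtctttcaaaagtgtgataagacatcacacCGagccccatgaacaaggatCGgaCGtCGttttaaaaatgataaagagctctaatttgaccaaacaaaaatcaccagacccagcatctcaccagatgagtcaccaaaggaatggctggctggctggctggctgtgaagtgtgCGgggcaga
The 1700055D16Rik sequence held 53 CG dinucleotides and the Gm16796 sequence 7. The observed count of CG over the count expected from the C and G content was 1.10 in 1700055D16Rik, 1.07 in Gm46864, 1.04 in B330016D10Rik, 0.916 in 4930456A14Rik, 0.826 in Chaserr, 0.778 in A630072M18Rik, 0.744 in Gm10910 and 0.400 in Gm16796. The motif GGGCGG, read on both strands, was in 6 of these 8 sequences and absent from A630072M18Rik and Gm16796.

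The peak lists differed strongly in size. WT replicates 2, 3 and 4 had 906, 64 and 294 autosomal peaks, and Sirt7-/- replicates 2, 3 and 4 had 2823, 2040 and 2579. A list holds no read coverage and depth after filtering is unknown, so a start without a peak is not shown to lack the mark. No list had a peak at the start of Sirt7 itself, and a peak list cannot check the deletion. Of 15 starts of spermatogonial marker genes, 6 had a peak in at least 1 list, all of them Sirt7-/- lists. Of 7 Sertoli cell marker starts, 2 did (Sox9 and Dhh, each in 1 Sirt7-/- list), and none of 11 starts of Leydig cell, peritubular and macrophage markers did. Of all protein-coding starts, 20.8% had a peak in at least 1 list and 20.3% in at least 1 Sirt7-/- list. Beside these shares the marker sets are too small to tell the cell types apart. The part of other testis cells in the calls at lncRNA starts was not tested.

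Few lone lncRNA starts carried a peak. They numbered 28, 1 and 12 in WT replicates 2, 3 and 4, which is 0.305%, 0.0109% and 0.131% of the 9171 (exact 95% intervals 0.203 to 0.441%, 0.000276 to 0.0607% and 0.0676 to 0.228%). In Sirt7-/- replicates 2, 3 and 4 they numbered 93, 67 and 101, or 1.01%, 0.731% and 1.10% (0.819 to 1.24%, 0.567 to 0.927% and 0.898 to 1.34%). These intervals cover counting error only, and neighbouring starts can share a peak. The lowest Sirt7-/- list had 67 called members and the highest WT list 28, so the genotypes did not overlap. The same held over all autosomal starts of known strand. Of these, 2.67%, 0.199% and 0.872% were called in WT replicates 2, 3 and 4. In Sirt7-/- replicates 2, 3 and 4 it was 7.93%, 5.90% and 7.18%.

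Protein-coding starts were called far more often in the same lists. Their rates were 4.64%, 0.336% and 1.43% in WT replicates 2, 3 and 4, and 13.9%, 10.3% and 12.4% in Sirt7-/- replicates 2, 3 and 4. The rate at lone lncRNA starts was lower in 6 of 6 lists, with a mean difference of -6.61 percentage points (exact sign-flip permutation test over the 6 lists, two-sided, p = 0.03125, the smallest p that 6 lists allow). The protein-coding rate was between 10.9 and 30.8 times the member rate within a list. Protein-coding starts with no other gene start within 3000 bp, 14942 in number, were called at 0.214 to 3.57% in the WT lists and 7.95 to 11% in the Sirt7-/- lists. The member rate was also below theirs in each list, with a mean difference of -4.97 percentage points (exact sign-flip permutation test, two-sided, p = 0.03125).

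LncRNA starts near a protein-coding start had higher rates than the lone ones. They were called at 6.41%, 0.469% and 2.34% in WT replicates 2, 3 and 4 and at 17.8%, 13.3% and 16.4% in Sirt7-/- replicates 2, 3 and 4. The lone starts were lower in 6 of 6 lists, with a mean difference of -8.90 percentage points (exact sign-flip permutation test, two-sided, p = 0.03125). A start within 3000 bp of a protein-coding start shares much of its region with it, so many of these calls rest on the same peak.

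**Figure D1:**
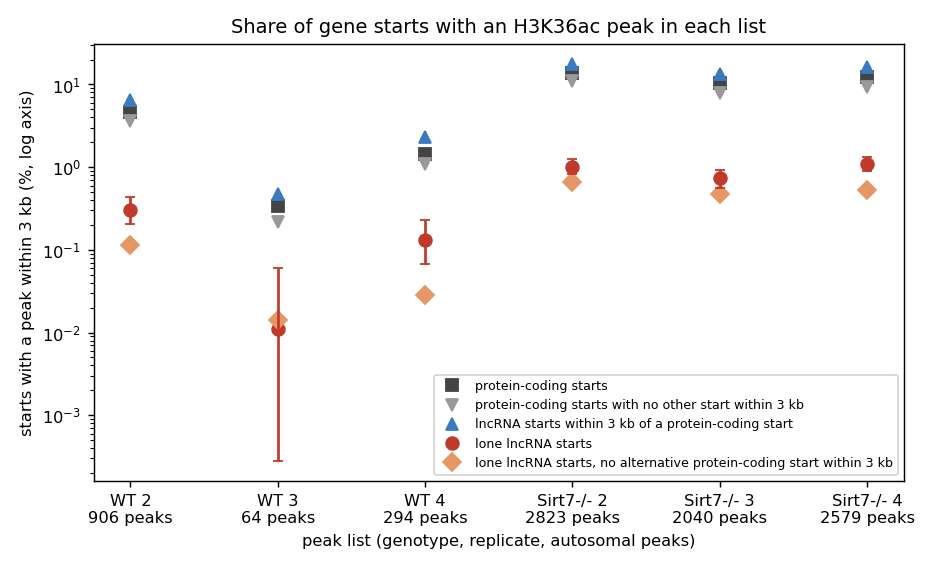
Percent of gene starts with a peak within 3 kb (log axis) in each of the 6 peak lists, for lone lncRNA starts (circles, with exact 95% intervals of counting error), lone lncRNA starts with no listed alternative protein-coding start within 3 kb (diamonds), lncRNA starts near a protein-coding start (upward triangles), protein-coding starts (squares) and protein-coding starts with no other start within 3 kb (downward triangles). Lone lncRNA starts sit at 0.0109 to 1.10% and protein-coding starts at 0.336 to 13.9%, in every list with the lone lncRNA starts below.

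More members were called in the full Sirt7-/- lists than in the full WT lists. Sirt7-/- lists had 87.0 ± 17.8 called members and WT lists 13.7 ± 13.6 (SD, n = 3 each), a ratio of 6.37 (two-sided exact permutation p = 0.1, and 3 against 3 cannot give a smaller p). With the 64 best peaks of each list, which makes the lists equal in length, the difference fell from 73.3 to 0.667 called members (exact permutation p = 0.7). Lists this short can call few members in either genotype, and only 2 members were then called in 2 or more lists. This setting therefore leaves little room for a difference. The ratio was 13.4 without WT replicate 2 and 4.35 without WT replicate 3. Over the same lists the mean number of called protein-coding starts was 5.71 times as high in Sirt7-/-, and that of autosomal peaks 5.89 times.

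The member rate relative to protein-coding starts overlapped between the genotypes. The member rate divided by the protein-coding rate was 0.0658, 0.0325 and 0.0914 in WT replicates 2, 3 and 4 and 0.0729, 0.0710 and 0.0890 in Sirt7-/- replicates 2, 3 and 4. The means were 0.0632 ± 0.0295 and 0.0777 ± 0.00985 (SD, n = 3 each; exact permutation test, two-sided, p = 0.5). The difference of 0.0144 depended on the setting. It was 0.000390 with a region of 1000 bp, 0.00156 with each peak assigned to its nearest start and -0.000936 without WT replicate 3. For 3 sets of members the ratio was higher in every Sirt7-/- list than in every WT list (exact permutation p = 0.1). This is the smallest p that 3 against 3 allows. The sets were members more than 10000 bp from a protein-coding start (difference 0.0290), members outside protein-coding genes (0.00826) and members with no alternative protein-coding start nearby (0.0162). In the last set the ratios of WT replicates 2, 3 and 4 rest on only 8, 1 and 2 called starts. Peaks at a member and at no protein-coding start made up 2.65%, 1.56% and 3.74% of the WT lists and 2.66%, 2.65% and 3.33% of the Sirt7-/- lists. The mean shares were 2.65 ± 1.09% and 2.88 ± 0.394% (SD, n = 3 each; exact permutation test, two-sided, p = 0.9). For members more than 10000 bp from a protein-coding start the difference in share was 0.965 percentage points (exact permutation p = 0.1). The WT replicate 3 share rests on 1 peak.

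Over the 6 lists, 159 members (1.73%) were called at least once, beside 12.0% of all 42667 starts. Of the members, 75 (0.818%, exact 95% interval 0.644 to 1.02%) were called in 2 or more lists, beside 6.76% of all starts and 11.7% of protein-coding starts. No member was called in all 6 lists (0 of 9171, exact upper limit 0.0402%). Few starts of any class were, at 0.0609% of all starts and 0.0987% of protein-coding starts. Members called in 5 lists numbered 6, with 11 in 4, 28 in 3, 30 in 2 and 84 in 1. Of the 84 seen in 1 list, 81 were seen in a Sirt7-/- list. Of the 34 members called in any WT list, 31 were also called in a Sirt7-/- list. This was much as for other starts, with 1212 of 1339 over all starts and 997 of 1099 at protein-coding starts.

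**Figure D2:**
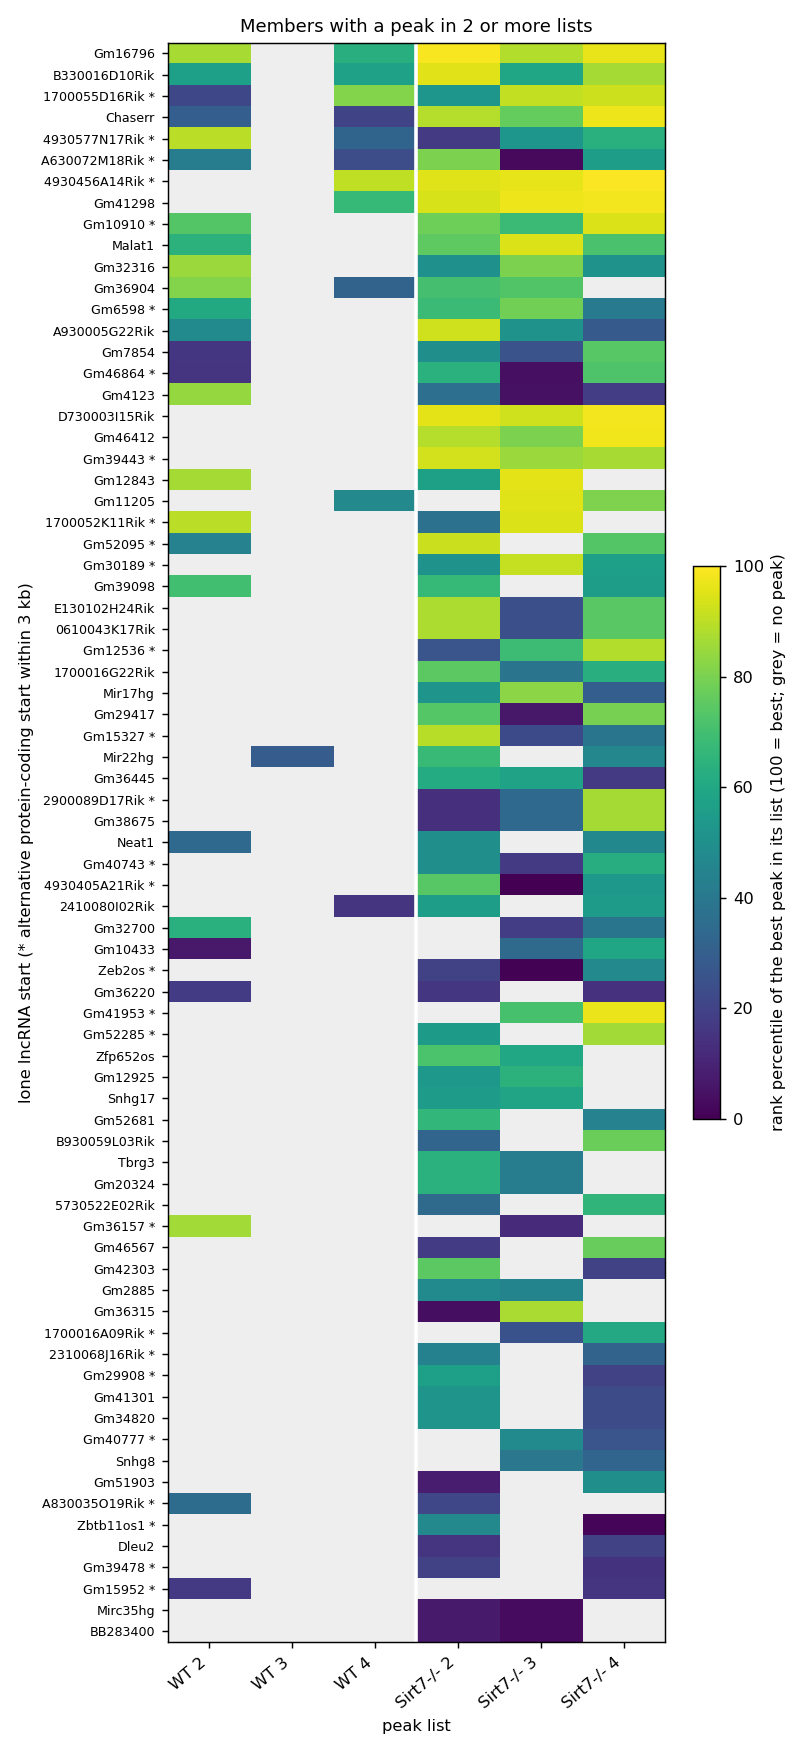
The 75 lone lncRNA starts with a peak in 2 or more lists (rows, ordered by number of lists and then by mean rank percentile) across the 6 peak lists (columns). Colour is the rank percentile of the best peak in its own list (100 is the best, grey is no peak), and an asterisk marks the 28 members with a listed alternative protein-coding start within 3 kb. The WT replicate 3 column is grey but for Mir22hg, and the Sirt7-/- columns hold most of the calls.

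The 6 members called in 5 lists were missed only in WT replicate 3, the shortest list. For each peak a rank percentile was taken from the authors' -log10 q within its list, where 100 is the best peak. Gm16796 (start at position 170511927 of chromosome 2, minus strand) lies inside the prefoldin subunit gene Pfdn4, on the opposite strand. Its peak ranked at percentiles 87.0 and 63.1 in WT replicates 2 and 4 and 98.9, 88.5 and 96.5 in Sirt7-/- replicates 2, 3 and 4. In all of these lists the peak lay 208 to 528 bp downstream of the start by its midpoint and did not reach it.

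B330016D10Rik (141546162 of chromosome 4, plus strand) lies 7518 bp from the start of Spen, a transcriptional corepressor gene. Its percentiles were 56.5 and 57.3 in WT replicates 2 and 4 and 95.5, 59.3 and 86.7 in Sirt7-/- replicates 2, 3 and 4. Chaserr (73558395 of chromosome 7, minus strand) is an lncRNA known to restrain the neighbouring chromatin remodeller gene Chd2, whose start was 16649 bp away. Its percentiles were 30 and 20.6 in the WT lists and 88.9, 76.3 and 97.4 in the Sirt7-/- lists. Both members lie between protein-coding genes, and both had peaks overlapping the start itself in some lists, 1 for B330016D10Rik and 2 for Chaserr.

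The remaining 3 of these members lie inside a protein-coding gene on the opposite strand and within 1 kb of another start of that gene. 1700055D16Rik (134792360 of chromosome 6) lies in Dusp16, which encodes a phosphatase of MAP kinases, 268 bp from an alternative Dusp16 start. Its start was inside the peak in 5 of 5 lists, at percentiles 21.6 and 81.5 in WT replicates 2 and 4 and 52.6, 90.8 and 92.5 in Sirt7-/- replicates 2, 3 and 4. 4930577N17Rik (51276761 of chromosome 3) lies in Elf2, an ETS transcription factor gene, 753 bp from an alternative start. It too had its start inside the peak in 5 of 5 lists, at percentiles 89.8 and 32.1 in WT and 16.8, 52.3 and 63.5 in Sirt7-/-. A630072M18Rik (20950989 of chromosome 5) lies in Rsbn1l, 833 bp from an alternative start, at percentiles 42.5 and 23.6 in WT and 80.2, 2.62 and 56.1 in Sirt7-/-. The ranks of these members therefore varied widely from list to list, from 2.62 to 92.5 among these 3.

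Of the 11 members called in 4 lists, 10 were called in all 3 Sirt7-/- lists and 1 WT list, and the other in 2 lists of each genotype. The best ranked was 4930456A14Rik (126502434 of chromosome 7, plus strand), which starts 9 bp from an alternative start of Atxn2l on the opposite strand. Its percentiles were 90.3 in WT replicate 4 and 95.1, 96.2 and 99.3 in Sirt7-/- replicates 2, 3 and 4. Gm41298 (36797201 of chromosome 15) lies inside Ywhaz, an adaptor protein gene, on the opposite strand, and ranked at 67.2 in WT replicate 4 and 94.1, 97.3 and 98.4 in Sirt7-/-. Its peak midpoints lay at -3646 to -3444 bp, where negative values are upstream of the start, and the peaks entered the region only at its edge.

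Malat1 (5802672 of chromosome 19, minus strand), the abundant nuclear lncRNA of nuclear speckles, had its peak upstream of the annotated start, with midpoints at -977 to -568 bp. It was called in WT replicate 2 at percentile 64.2 and in Sirt7-/- replicates 2, 3 and 4 at 75.4, 94.5 and 71.4. It lies between protein-coding genes. Gm32316 (30655933 of chromosome 2), 60889 bp from the nearest protein-coding start, had percentiles of 85.2 in WT replicate 2 and 50.1, 80.5 and 51.2 in Sirt7-/-, again with a peak well upstream, at -2581 to -2288 bp.

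Gm10910 (31280929 of chromosome 9) lies in Prdm10, a zinc finger gene, on its strand and 380 bp from an alternative start, and its start was inside the peak in 4 of 4 lists. Its percentiles were 73.3 in WT replicate 2 and 77.8, 68.0 and 94.9 in Sirt7-/- replicates 2, 3 and 4. Gm46864 (103214943 of chromosome 4), inside the nucleotide sugar transporter gene Slc35d1 and 233 bp from an alternative start, also had its start inside the peak in 4 of 4 lists, at 15.6 in WT replicate 2 and 64, 4.08 and 72.5 in Sirt7-/-. A930005G22Rik (115429504 of chromosome 5), inside the RNA-binding protein gene Msi1 on the opposite strand, had percentiles of 47.8 in WT replicate 2 and 92.7, 51.5 and 28.5 in Sirt7-/-. In Gm46864 and A930005G22Rik the ranks spread widely among the Sirt7-/- lists.

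Gm6598 (130223866 of chromosome 5, in Tmem248) had percentiles of 60.7 in WT replicate 2 and 68.2, 78.8 and 41.2 in Sirt7-/-. Gm7854 (43235354 of chromosome 5, in the translation regulator gene Cpeb2) had 15.7 in WT replicate 2 and 49.8, 25.4 and 74.1 in Sirt7-/-. Gm4123 (141535549 of chromosome 4, in Spen) had 84.3 in WT replicate 2 and 36.7, 4.43 and 18 in Sirt7-/-. Gm4123 was thus the member of these 3 whose WT peak ranked above its Sirt7-/- peaks.

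Members called in every Sirt7-/- list and no WT list numbered 17 (0.185%), beside 1.45% of all starts and 2.59% of protein-coding starts. The 3 that ranked best were D730003I15Rik (191224454 of chromosome 1), Gm46412 (46724685 of chromosome 13) and Gm39443 (109653968 of chromosome 11). D730003I15Rik lies between protein-coding genes, 41121 bp from the start of the stress response factor gene Atf3, and its peaks ranked at 95.8, 92.6 and 98.3 in Sirt7-/- replicates 2, 3 and 4. Gm46412 lies in the nuclear pore gene Nup153 and ranked at 88.8, 80.3 and 97.9. Gm39443 lies in Prkar1a, a regulatory subunit gene of protein kinase A, and ranked at 93.3, 85.1 and 86.9. The peaks of Gm46412 and Gm39443 had midpoints at 2725 to 3058 bp and at -2861 to -2756 bp from their starts, and all of them also overlapped a protein-coding region.

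The other 14 were Gm30189, E130102H24Rik, 0610043K17Rik, Gm12536, 1700016G22Rik, Mir17hg, Gm29417, Gm15327, Gm36445, 2900089D17Rik, Gm38675, Gm40743, 4930405A21Rik and Zeb2os. Their mean percentiles ran down to 22.5, in Zeb2os, which lies antisense to the transcription factor gene Zeb2. Because the shortest Sirt7-/- list had 2040 autosomal peaks and the longest WT list 906, this count moves with the size of the lists as well as with genotype, and list size and genotype cannot be told apart.

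A further 11 members were called in 3 lists that included a WT list. These were Gm12843, Gm11205, 1700052K11Rik, Gm52095, Gm39098, Mir22hg, Neat1, 2410080I02Rik, Gm32700, Gm10433 and Gm36220. Among the 30 members called in 2 lists, 27 were called in 2 Sirt7-/- lists and no WT list. Those 27 were Gm41953, Gm52285, Zfp652os, Gm12925, Snhg17, Gm52681, B930059L03Rik, Tbrg3, Gm20324, 5730522E02Rik, Gm46567, Gm42303, Gm2885, Gm36315, 1700016A09Rik, 2310068J16Rik, Gm29908, Gm41301, Gm34820, Gm40777, Snhg8, Gm51903, Zbtb11os1, Dleu2, Gm39478, Mirc35hg and BB283400. The remaining 3 (Gm36157, A830035O19Rik and Gm15952) had 1 list of each genotype.

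Not every called member had a peak of its own. The pairs E130102H24Rik and 0610043K17Rik, 2900089D17Rik and Gm38675, Tbrg3 and Gm20324, Gm41301 and Gm34820, and Mirc35hg and BB283400 shared their peaks, so 10 of the 75 members rest on 5 regions. For 11 of the 75 all peaks also overlapped the region of a protein-coding start. With a region of 1000 bp to each side, 56 of the 75 were still called in 2 or more lists, and the start itself lay inside a peak in at least 1 list for 30.

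LncRNAs with an established name or function were looked up from a list of 78, of which 51 were members. Of these 51, 11 were called in at least 1 list, beside 1.73% of all members and 12.0% of all starts. In 2 or more lists 7 were called, beside 0.818% of all members and 6.76% of all starts. These 7 were Malat1, Neat1, Mir17hg, Mir22hg, Dleu2, Snhg8 and Snhg17. The list was chosen with earlier results of these data known. Neat1, the scaffold of nuclear paraspeckles and a chromosome 19 neighbour of Malat1, was called in WT replicate 2 at percentile 34.2 and in Sirt7-/- replicates 2 and 4 at 49.9 and 46.8. Both neighbours were thus called in 1 WT list, and Malat1 also in Sirt7-/- replicate 3.

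The called members of this list include several host genes of small RNAs. Mir17hg, which carries the oncogenic miR-17 cluster, was called in all 3 Sirt7-/- lists at 51.8, 82.7 and 30 and in no WT list, with peak midpoints at -3249 to -2836 bp from the annotated start. Mir22hg, the host of miR-22, was the only member called in WT replicate 3, at percentile 28.9, and had peaks in Sirt7-/- replicates 2 and 4 at 67.2 and 46.4. Dleu2, a microRNA host deleted in human chronic lymphocytic leukaemia, had peaks in Sirt7-/- replicates 2 and 4 at 15.5 and 19.3. Of the hosts of small nucleolar RNAs, Snhg17 was called in Sirt7-/- replicates 2 and 3 at 55.2 and 58.5, and Snhg8 in Sirt7-/- replicates 3 and 4 at 39.6 and 32.6. In the whole table, 5 of 27 members named as small nucleolar RNA or microRNA host genes were called in 2 or more lists (18.5%, exact 95% interval 6.30 to 38.1%), beside 0.818% of all members.

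Epb41l4aos, Snhg6 and Lockd were called in 1 Sirt7-/- list each and Snhg16 in 1 WT list. The other 40 members of the list had no peak in any list. The first 5 of these by alphabet were Airn, Bvht, Carmn, Dancr and Dlx6os1, of which Airn is the imprinted antisense transcript of Igf2r and Bvht and Carmn are known from heart and smooth muscle.

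The distance rule used 1 start per gene. RefSeq lists further starts for many protein-coding genes, and 199 members lay within 3000 bp of such an alternative start. Of these 199, 28 were called in 2 or more lists (14.1%, exact 95% interval 9.56 to 19.7%). Of 7021 members with no listed alternative start within 3000 bp, 31 were (0.442%, 0.300 to 0.626%). For 1951 members the nearest or surrounding protein-coding gene has no alternative start in the table used here, and 16 of them were called in 2 or more lists (0.820%, 0.469 to 1.33%).

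The rate among the 7021 was 0.114%, 0.0142% and 0.0285% in WT replicates 2, 3 and 4 and 0.655%, 0.470% and 0.527% in Sirt7-/- replicates 2, 3 and 4. It was below the rate of protein-coding starts in 6 of 6 lists, with a mean difference of -6.86 percentage points (exact sign-flip permutation test, two-sided, p = 0.03125). Among the 199 the rate was 5.53%, 0% and 2.51% in the WT lists and 13.1%, 10.6% and 19.6% in the Sirt7-/- lists, above the rate of protein-coding starts in 4 of 6 lists. The 7021 were below the 199 in 5 of 6 lists, the exception being WT replicate 3 with 1 and 0 called starts (mean difference -8.24 percentage points, exact sign-flip permutation test, two-sided, p = 0.0625). Of the 17 members called in every Sirt7-/- list and no WT list, 8 were among the 199 and 7 among the 7021.

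The 31 called members with no alternative start nearby include B330016D10Rik, Gm32316, Gm4123, D730003I15Rik, Neat1, Mir17hg, Mir22hg, Snhg8, Snhg17 and Dleu2. Malat1, Chaserr and Gm16796 are among the 16 whose neighbours were not assessed. The 28 with an alternative start nearby include 1700055D16Rik in Dusp16, 4930577N17Rik in Elf2, Zeb2os in Zeb2, Gm40743 in Tmcc3, Gm29908 in the guidance receptor gene Robo1, and Gm30189 in Gnas, the imprinted gene of a G protein subunit. In 22 of the 28 the alternative start was within 1000 bp.

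Position relative to protein-coding genes went with the calls in a like manner. Of 2189 members that start inside a protein-coding gene on the opposite strand, 40 were called in 2 or more lists (1.83%, exact 95% interval 1.31 to 2.48%). Between protein-coding genes it was 31 of 6746 (0.460%, 0.312 to 0.652%), and inside a gene on the same strand 4 of 231 (1.73%, 0.474 to 4.37%). Among the 7021 members with no alternative start nearby the shares were 0.400% (6 of 1499) inside on the opposite strand and 0.431% (23 of 5336) between genes. Inside on the same strand the share was 1.08%, from only 2 of 186. The 1951 members that were not assessed are left out of these shares. The higher share on the opposite strand was therefore not seen among members without an alternative start nearby.

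Members closer to a protein-coding start were also called more often. The share called in 2 or more lists was 2.36% at 3 to 10 kb (24 of 1015), 0.833% at 10 to 50 kb (28 of 3363) and 0.480% beyond 50 kb (23 of 4793). Among members with no alternative start nearby the shares were 0.826%, 0.501% and 0.324% in the same order. Regions of starts less than 6 kb apart overlap, and the 11 called members whose peaks all overlapped a protein-coding region were among the 24 at 3 to 10 kb. The strand made little difference to the count, with 40 of 4660 members on the plus strand and 35 of 4511 on the minus strand called in 2 or more lists (0.858% and 0.776%).

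**Figure D3:**
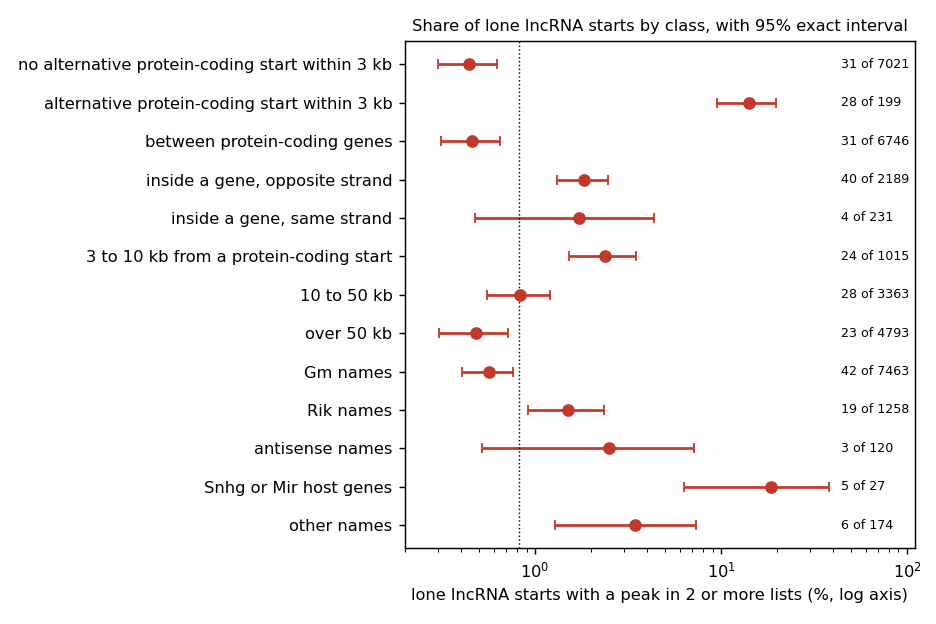
Percent of lone lncRNA starts with a peak in 2 or more lists (log axis) by class, with the exact 95% interval of counting error and the count at the right. The dotted line marks the 0.818% of all lone lncRNA starts, and the highest points are host genes of small RNAs (18.5%) and starts with an alternative protein-coding start within 3 kb (14.1%).

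Peaks at members lay to both sides of the start, whereas peaks at protein-coding starts lay mostly downstream. The share of peaks with a midpoint downstream was 37.5% and 72.7% at members in WT replicates 2 and 4, and 58.7%, 44.4% and 41.9% in Sirt7-/- replicates 2, 3 and 4. At protein-coding starts it was 85.1% and 89.6% in the same WT lists and 83.9%, 82.9% and 83.8% in the Sirt7-/- lists. The share was lower at members in 5 of 5 lists, with a mean difference of -34.0 percentage points (exact sign-flip permutation test, two-sided, p = 0.0625, the smallest p that 5 lists allow). WT replicate 3 had 1 peak at a member and was left out of these comparisons, which used lists with at least 3.

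The median midpoint at members was -159.5 and 348 bp in WT replicates 2 and 4 and 132, -61 and -160.5 bp in Sirt7-/- replicates 2, 3 and 4, where negative values are upstream. At protein-coding starts it lay between 299 and 333 bp in the same lists. The mean difference of medians was -296 bp (exact sign-flip permutation test, two-sided, p = 0.125), and it was negative in 4 of 5 lists, with 15 bp in WT replicate 4.

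For called members with an alternative protein-coding start nearby, the side depended on which gene was taken as the reference. Of their 84 peaks, 39 (46.4%) were downstream of the lncRNA start and 72 (85.7%) downstream of the nearest alternative protein-coding start. Seen by member, the median peak lay downstream of the protein-coding start in 25 of 28 and downstream of the lncRNA start in 12 of 28. For the 31 called members with no alternative start nearby, 45 of 83 peaks (54.2%) were downstream of the lncRNA start.

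**Figure D4:**
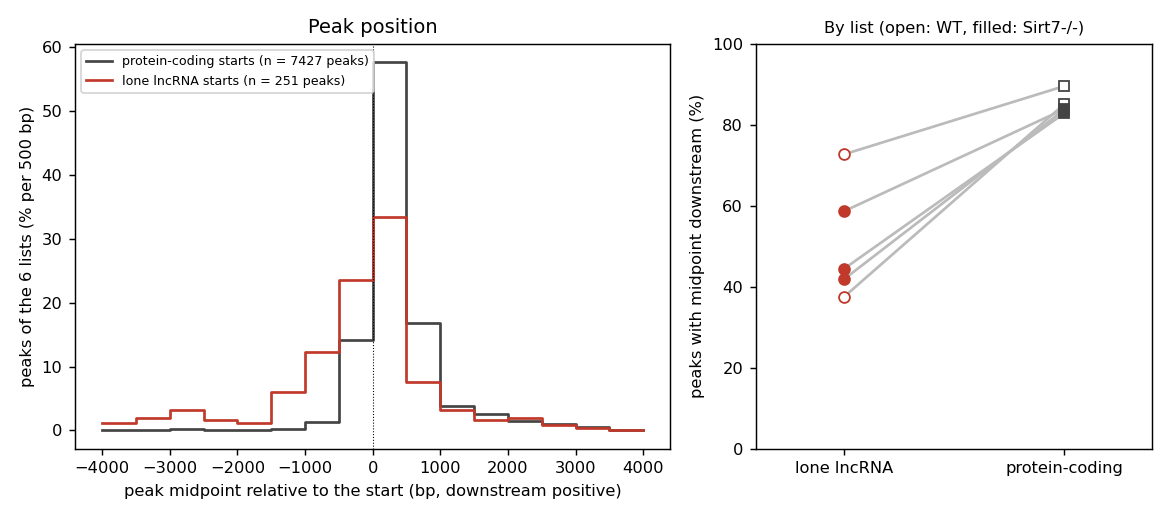
Left, percent of peaks per 500 bp bin by the distance of the peak midpoint from the start (bp, downstream positive), for peaks at lone lncRNA starts only (red) and at protein-coding starts only (grey) over the 6 lists together. Right, percent of peaks with a midpoint downstream of the start in each of 5 lists (open symbols WT, filled Sirt7-/-, lines join the same list), at 37.5 to 72.7% for lone lncRNA starts and 82.9 to 89.6% for protein-coding starts.

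Width and rank of the peaks at members were compared with those at protein-coding starts. The median width was 351.5 and 272 bp at members in WT replicates 2 and 4 against 377 and 297.5 bp at protein-coding starts. In Sirt7-/- replicates 2, 3 and 4 it was 569, 492.5 and 578.5 bp against 490, 457 and 469 bp. The mean difference was 34.6 bp (exact sign-flip permutation test over 5 lists, two-sided, p = 0.3125), with members narrower in both WT lists and wider in the 3 Sirt7-/- lists. The median rank percentile at members was between 45.3 and 57.3 and at protein-coding starts between 50.4 and 52.3, with a mean difference of -1.32 (exact sign-flip permutation test, two-sided, p = 0.5625). With a region of 1000 bp the rank difference was -5.92, lower at members in 5 of 5 lists (exact sign-flip permutation p = 0.0625), and for members with no alternative start nearby it was -5.39 (p = 0.5 in the same permutation test). The p-values of these comparisons do not show that the peaks were alike.

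Called members had promoters richer in CpG than uncalled ones. A promoter sequence was found for 60 of the 75 members called in 2 or more lists (80%), for 7575 of the 9012 called in none (84.1%) and for 1937 of 2380 protein-coding starts called in 2 or more lists (81.4%). It lay within 50 bp of the start used here for 58, 7340 and 1320 of them. The median ratio of observed to expected CpG was 0.744 (quartiles 0.474 and 0.938) at the called members and 0.218 (0.118 and 0.347) at the uncalled ones. At protein-coding starts called in 2 or more lists it was 0.878 (0.743 and 1.00), and at those called in none 0.456 (0.182 and 0.759).

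The share of CpG-rich promoters, with a ratio of at least 0.6 and at least 50% G and C, followed the same order. It was 58.3% at the 60 called members, 41.4% at the 70 with a sequence called in 1 list and 3.97% at uncalled members, and 85.5% at called protein-coding starts. Among called members with no alternative start nearby it was 13 of 25 (52.0%), and with one nearby 15 of 25 (60.0%). CpG-rich promoters at called members are therefore not only those beside a protein-coding start. In uncalled members the share was 3.34% with no alternative start nearby and 32.6% with one nearby. Called and uncalled members thus differed less beside an alternative start. At protein-coding starts called in no list it was 37.8%. The sequences of B330016D10Rik and 1700055D16Rik above are at the rich end of the range, and Gm16796 is a called member below the threshold.

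Of 6 motifs searched on both strands, GGGCGG, the GC box bound by factors of the SP family, differed most between called and uncalled members. It was in 53.3% of called and 9.58% of uncalled members, in 72.4% of called protein-coding starts and in 36% of the 31396 autosomal promoters of the table. TATAAA was in 10% of called and 17.1% of uncalled members (13.6% of all promoters) and CCAAT in 28.3% and 36.4% (37.3%). CCGGAAG was in 8.33% and 2.88% (9.0%), CACGTG in 8.33% and 5.44% (7.14%) and GATGGC in 11.7% and 15.0% (14.3%). Of these motifs 3, GGGCGG among them, contain CG themselves, so their counts and the CpG content are not independent, and a match is a description of the letters only.

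**Figure D5:**
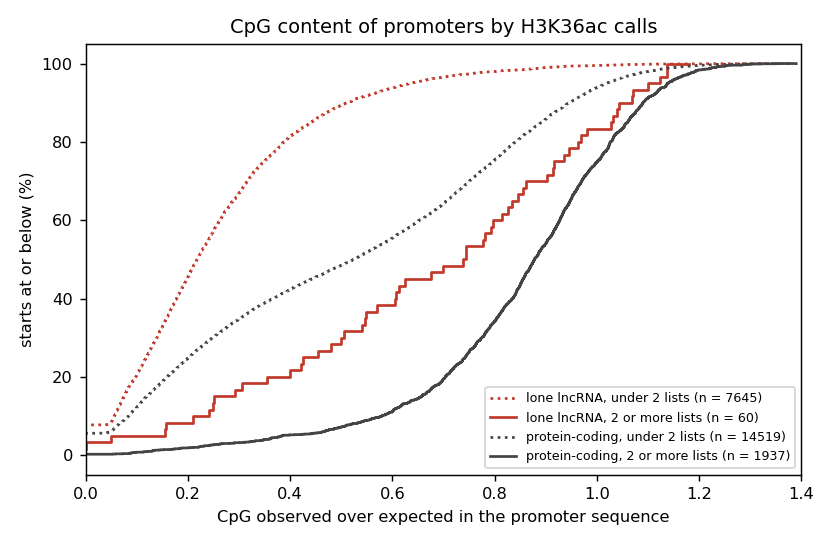
Cumulative percent of starts by the CpG observed over expected ratio of the RefSeq promoter sequence, for lone lncRNA starts (red) and protein-coding starts (grey) called in 2 or more lists (solid) or in fewer (dotted). The called lone lncRNA starts had lower ratios (median 0.744) than the called protein-coding starts (median 0.878) and higher ones than lone lncRNA starts in fewer lists.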

How the data were processed

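H3K36ac peak lists of 3 WT and 3 Sirt7-/- samples were used. The inputs entered only through peak calling. Per the study's methods and the submitters' processing notes, the authors used Trim Galore 0.6.6 for trimming, Bowtie2 2.4.4.1 for alignment to mm10, SAMtools 1.19.2 for filtering and MACS2 2.2.5 for broad peaks (broad cutoff 0.1), per sample and without pooling. The deposited lists give each peak's fold over input (a ratio) and the deposited -log10 of p and of q. These were used only within a list. The deposited score was not used. Depth after filtering is not known here.

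Starts were taken from RefSeq genes on GRCm38.p6, in a table without strand. Strand came from the RefSeq promoter table by gene ID (9291 of 12408 autosomal lncRNA genes) and otherwise from GENCODE vM39 by symbol and chromosome (1800), so that 1317 lncRNA genes without strand were left out. For 405 protein-coding genes without strand both ends counted as possible starts. Alternative starts came from the promoter table, which has no rows for some genes and chromosome 18.

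Peaks were counted at starts by overlap of at least 1 bp. Genotypes were compared with exact permutation tests over the 20 assignments of 3 against 3, and classes of start within a list with exact sign-flip tests over lists. Shares have exact (Clopper-Pearson) 95% intervals. Members called in 2 or more lists are named, ordered by number of lists and then mean rank percentile, the first 20 with values in each list, except 1 that is counted but not reported here. Sequences are shown for 8 of these, those with the start inside a peak first. The members and gene lists were chosen with earlier results of these data known. The alternatives were other regions, distances, thresholds, assignments and comparators, members outside genes, the same number of peaks per list, a replicate block and each replicate left out. Functions were tested on simulated peaks. Tests used SciPy 1.17.1 and NumPy 2.4.6, tables pandas 2.3.3 and figures matplotlib 3.10.9, under Python 3.11.15.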

Additional observations from a re-analysis of the deposited data

How the results depend on the processing

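Under 119 alternatives to 9 results, 97 values were scored as unchanged. For the 2 counts of members called in several lists this meant a size within 1.5 times. For the other results it meant the same direction and the same side of a threshold of 0.05 in the exact permutation test. The genotype comparisons, 3 lists against 3, allow no exact permutation p below 0.1. The comparisons of peak width, rank and midpoint over 5 lists allow no exact sign-flip permutation p below 0.0625. Results of both kinds could not cross the threshold, so for them the score reflects direction only. Sizes of results other than the 2 counts could still move. The genotype difference of 73.3 called members was 45 with a -log10 q of at least 2, 34 outside protein-coding genes, 35 with alternative starts and 0.667 with the 64 best peaks. The member rate stayed below the protein-coding rate throughout, at -7.87 to -5.36 percentage points when each list was left out in turn, where 5 lists allow no p below 0.0625. The number of members called in 2 or more lists was 51 to 75 with a list left out, 31 for members outside protein-coding genes, 31 when alternative protein-coding starts were counted too (an alternative chosen after seeing the data) and 2 with the 64 best peaks of each list. The number called in every Sirt7-/- and no WT list was 17 to 31 with a list left out, 8 with a region of 1000 bp, 11 with a distance of 10000 bp, 6 with a -log10 q of at least 2, 0 with the 64 best peaks, 10 with each peak assigned to its nearest start, 6 for members outside protein-coding genes and 7 with alternative starts. The largest of these, 31, came without Sirt7-/- replicate 3 and 26 without Sirt7-/- replicate 4, since the rule then asks for fewer lists. The share of peaks at members differed between genotypes by -0.0615 percentage points with a region of 1000 bp, by 0.965 with a distance of 10000 bp and by -0.316 to 0.774 with a list left out. The ratio of member to protein-coding rate differed by -0.000936 to 0.0285 and the rank percentile by -3.31 to 0.0940 with a list left out. Other settings gave 0.000390 to 0.0290 for the ratio and -5.92 to -2.33 for the rank. There were 4 reversals. They were the share with a region of 1000 bp, the share and the ratio without WT replicate 3, and the rank without Sirt7-/- replicate 4. Their cause was not tested.

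The peak calls gave no sign that replicate numbers pair the samples, though they cannot exclude that same-numbered samples were handled together. Over 5100 called starts the deviations of same-numbered samples correlated at -0.0408, -0.0769 and 0.0113, and a replicate block gave exact permutation p = 0.25 for the difference of 73.3 called members between genotypes, 0.75 for the share of peaks and 0.50 for the ratio. With 3 pairs this block allows no p below 0.25, so it could not change a call. With 3 lists a genotype, and WT lists of 64 to 906 peaks, the number of called members is limited by what each list holds.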

Other observations

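On the X chromosome, which the rule leaves out, 213 lncRNA starts with a strand met the same distance rule, and none had a peak in any of the 6 lists. Autosomal members were called at 0.0109 to 1.10% in a list, rates at which few of 213 starts would be called. A difference from the autosomes was not tested. The Sirt7-/- lists held 16, 5 and 12 X chromosome peaks in replicates 2, 3 and 4 and the WT lists none.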
